A study of Sus scrofa with 5 samples.

Results

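The cells described here carried the pluripotency factor POU5F1 and the trophectoderm factor GATA3 together, with little of the DNA methyltransferase DNMT3B. They were picked from 2 single-cell RNA libraries of porcine blastoids by unique molecular identifiers (UMIs, 1 for each captured RNA molecule). A barcode counted as a cell with at least 11223 UMIs in library 1 or 9805 in library 2. Of these, a cell was taken when it had at least 5 UMIs of *POU5F1*, at most 3 of *DNMT3B*, at least 2 of *GATA3*, under 15 of *CRABP1*, under 10 of *GABRP* and under 10 of *ISG15*. The rule found 966 of 15544 cells, called POU5F1/GATA3 cells below. They were 418 of 7369 cells in library 1, or 5.67% with a 95% exact binomial interval of 5.16 to 6.23%, and 548 of 8175 in library 2, or 6.70% with 6.17 to 7.27%. The intervals cover counting error only.

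The blastoids are blastocyst-like structures that were grown from porcine embryonic stem cells (pESCs) in induced blastoid (iBlastoid) medium. The pESCs came from parthenogenetic blastocysts, and structures at day 6 with an inner compartment, an outer layer and a cavity were picked by hand and dissociated. Both libraries are of this 1 condition, so no treatment, genotype or time was compared, and nothing in the labels says that they came from separate cultures. Test results below thus describe the spread between these libraries, which may be technical.

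In the blastocyst the inner cell mass has POU5F1 and SOX2 and gives rise to the epiblast. The trophectoderm, the epithelium that later builds the placenta, depends on factors such as GATA3, GATA2 and TFAP2C. POU5F1 is not taken here to be absent from the trophectoderm. DNMT3B, which sets new DNA methylation, marks the epiblast as it moves to the primed state. Settings with POU5F1 but without DNMT3B include cells that leave pluripotency, and primordial germ cells, which in pig and human use SOX17, PRDM1 and TFAP2C. Amnion cells also share GATA3, GATA2 and TFAP2A with the trophectoderm. The question put to these cells was where they stand next to such states, so genes of each were followed.

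Each library was summed over the POU5F1/GATA3 cells, over all other cells, and over 2 groups next to them that were set by the same genes. The POU5F1/DNMT3B cells had at least 5 *POU5F1* UMIs and more than 3 of *DNMT3B*, with any *GATA3* (302 and 579 cells in libraries 1 and 2). The GATA3 cells had at least 2 *GATA3* UMIs, at most 1 of *POU5F1* and at most 3 of *DNMT3B* (2285 and 2261 cells). The limits on the other 3 genes held for both groups. The cells in no group, called remaining cells, numbered 4364 and 4787. Levels are counts per 1000000 UMIs of the summed cells (CPM), given for library 1 and then library 2.

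The rule's own genes are given as a description, since they chose the cells. *POU5F1* was at 232 and 232 CPM in POU5F1/GATA3 cells, against 427 and 492 in POU5F1/DNMT3B cells and 8.15 and 9.69 in GATA3 cells. *GATA3* was at 174 and 181 CPM, against 60.5 and 48.3 in POU5F1/DNMT3B cells and 156 and 151 in GATA3 cells. *DNMT3B* was at 18.2 and 19.2 CPM, below the mean of 38.4 CPM in droplets with 10 to 100 UMIs, which hold free RNA and no cell. The median POU5F1/GATA3 cell had 8 *POU5F1* UMIs in both libraries, 7 and 6 of *GATA3* and 0 of *DNMT3B*. The limits cut through a continuous range. Among cells that met every other limit, 86 and 108 had exactly 5 *POU5F1* UMIs, just inside, and 110 and 119 had 4, just outside.

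Because the limits are raw UMIs, deep cells met the minimum more easily. Median UMIs were 39672.5 and 36081.5 in POU5F1/GATA3 cells, 45966.5 and 40564 in POU5F1/DNMT3B cells, 29058 and 26763 in GATA3 cells, and 29071 and 27017 in all other cells. The part of depth in the choice can be read from limits scaled to 30000 UMIs a cell, which gave 281 and 432 cells, of which 251 and 357 were among those above. Mitochondrial UMIs took a median of 0.667% and 0.627% in POU5F1/GATA3 cells and 0.599% and 0.581% in all other cells. Doublet scores marked 3.83% and 7.48% of POU5F1/GATA3 cells and 6.01% and 6.48% of the others. The libraries shared 9 cell barcodes, none of them of a POU5F1/GATA3 cell.

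**Figure D1:**
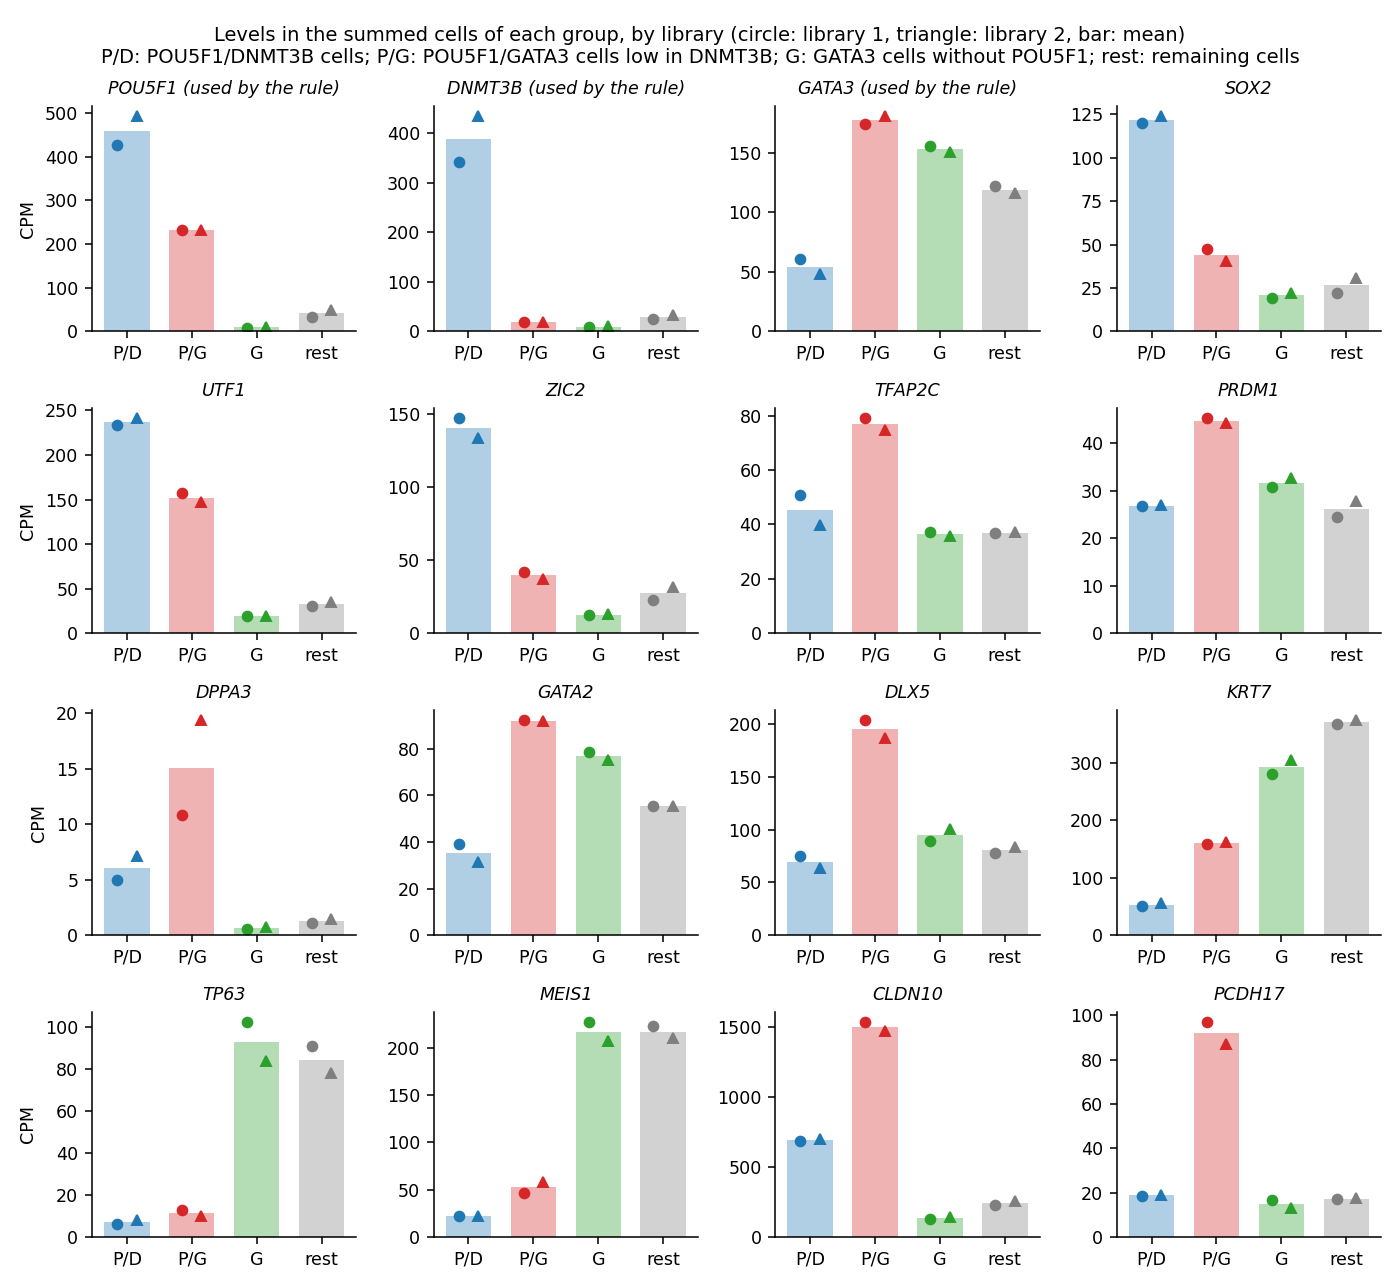
Levels in CPM of 16 genes in the summed cells of 4 groups, with library 1 as circles, library 2 as triangles and their mean as bars. The POU5F1/GATA3 cells (P/G, red) lay between both neighbouring groups for *SOX2*, *UTF1*, *ZIC2* and *KRT7* and above both for *TFAP2C*, *PRDM1*, *DPPA3*, *DLX5*, *CLDN10* and *PCDH17*; the first 3 genes were used by the rule.

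Against all other cells, edgeR's quasi-likelihood test called 5318 of 20038 genes, 26.5% of those tested, with 2290 higher (11.4%) and 3028 lower (15.1%) in POU5F1/GATA3 cells. Against POU5F1/DNMT3B cells it called 6229 of 18696 (33.3%), 3130 higher (16.7%) and 3099 lower (16.6%), and against GATA3 cells 6339 (33.9%), 3225 higher (17.2%) and 3114 lower (16.7%). The groups were set by values of the same cells, so genes that vary with *POU5F1*, *DNMT3B* or *GATA3* from cell to cell are not independent of the rule. Below, a fit without a library lacks that library's sum of the POU5F1/GATA3 cells, unless another group is named. In such fits the counts against all other cells were 3075 (without library 1) and 2974 (without library 2), and against GATA3 cells 4199 and 4019. The count against POU5F1/DNMT3B cells was 3954 without library 2. Restricting that group to its 126 and 205 cells with at least 2 *GATA3* UMIs, so that *DNMT3B* alone set the groups apart, left 2572 genes. Over all genes the median log2 fold change was -0.02, -0.01 and -0.00 in the 3 comparisons. Counts of list genes below are to be read against the shares of all genes given here.

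Pluripotency genes were lower than in POU5F1/DNMT3B cells and higher than in GATA3 cells. Of 11 tested genes of a core pluripotency list, 7 were lower and 0 higher than in POU5F1/DNMT3B cells (median log2 fold change -0.57), and 8 were higher and 0 lower than in GATA3 cells (median 0.62). *SOX2*, the partner of POU5F1 in the pluripotency network, was at 47.5 and 40.6 CPM, against 120 and 124 in POU5F1/DNMT3B cells and 19.2 and 22.2 in GATA3 cells. That is a log2 fold change of -1.40 ± 0.15 (SE, n = 2 libraries, edgeR adjusted p = 0.00011) and of 1.07 ± 0.15 (adjusted p = 0.00069 in the same edgeR fit), with no overlap of the groups. Against all other cells *SOX2* did not pass (0.41 ± 0.15, edgeR adjusted p = 0.07), while with the library as a block it did (0.43, edgeR adjusted p = 2.8e-06).

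*UTF1*, a chromatin factor of undifferentiated embryonic and germ cells on chr14:141190170-141193409, kept a larger part of its level. It was at 158 and 147 CPM, against 234 and 241 in POU5F1/DNMT3B cells and 18.9 and 19.7 in GATA3 cells, 7.82-fold above the latter (log2 2.97 ± 0.08, edgeR adjusted p = 1.4e-07). It was lower than in POU5F1/DNMT3B cells (log2 -0.57 ± 0.07, edgeR adjusted p = 0.0003), but not by the test when that group was restricted to cells with *GATA3* (-0.36, edgeR adjusted p = 0.068). *NANOG*, a core factor of the epiblast, was low throughout, at 1.20 and 1.70 CPM against 6.11 and 8.06 in POU5F1/DNMT3B cells. Its empty-droplet level was 0.213 CPM. *PRDM14*, which holds back differentiation, was at 8.23 and 5.50 CPM against 30.6 and 25.6. *SALL4*, *LIN28A* and *ZFP42* were also called higher than in GATA3 cells, with log2 fold changes of 0.62, 0.39 and 0.37. The *LIN28A* call was lost without library 1 or without library 2 of the GATA3 cells, and the *ZFP42* call without library 2 or without library 1 of the GATA3 cells.

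Genes of the primed state were mostly lower than in POU5F1/DNMT3B cells. Of 13 genes of a primed pluripotency list, 11 were lower and 1 (*FZD7*) higher, with a median log2 fold change of -1.02. *ZIC2*, a zinc finger factor of the primed epiblast, was at 42 and 37.4 CPM against 147 and 133. *NODAL*, the TGF-beta ligand of the epiblast, was at 0.164 and 0.224 CPM against 3.02 and 3.43, log2 -3.96 ± 0.42 (edgeR adjusted p = 9.2e-05), and *SOX11* at 117 and 107 CPM against 242 and 236. Against GATA3 cells 8 of the 13 were higher and 1 (*LIN28B*) lower, 5 higher without library 2 of the POU5F1/GATA3 cells. Restricting the POU5F1/DNMT3B cells to those with *GATA3* also gave 11 lower calls, and *FZD7* was then not called.

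Of the other genes of DNA methylation, *DNMT3A*, the other de novo methyltransferase, was at 44.3 and 44.6 CPM, against 55.9 and 53.4 in POU5F1/DNMT3B cells (log2 -0.22 ± 0.06, edgeR adjusted p = 0.025) and 37.7 and 34.7 in GATA3 cells. *DNMT1*, which copies methylation at replication, was at 99.1 and 102 CPM and was called in none of the 3 comparisons by edgeR, with adjusted p between 0.13 and 0.42. With the library as a block it was called higher than in all other cells (log2 0.14, edgeR adjusted p = 0.011) and lower than in POU5F1/DNMT3B cells (-0.11, edgeR adjusted p = 0.038), and without library 2 of the other cells it was also called above them (0.23, edgeR adjusted p = 0.01). *TET2*, which oxidises methylated cytosine, was at 36.5 and 40.5 CPM, above POU5F1/DNMT3B cells at 31 and 28 and below GATA3 cells at 47.4 and 44.4. Of the 7 genes of the list, 2 were higher and 3 lower than in POU5F1/DNMT3B cells, 5 lower with the library as a block. The lower calls were 0 without library 2 or without library 2 of the POU5F1/DNMT3B cells, and 1 without library 1 of the latter, and *DNMT3A* was called in none of these fits.

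The trophectoderm regulators moved the other way. Of 17 tested, 14 were higher and 1 (*EOMES*) lower than in POU5F1/DNMT3B cells, with a median log2 fold change of 1.10, and 8 were higher when that group was restricted to cells with *GATA3*. Against GATA3 cells 6 were higher and 6 lower (median -0.03), 3 higher without library 2. *GATA2*, which acts with GATA3 in the trophectoderm, was at 92.2 and 92.1 CPM, against 39.2 and 31.5 in POU5F1/DNMT3B cells and 78.6 and 75.2 in GATA3 cells. It was called above both, but the call against GATA3 cells (log2 0.25 ± 0.07, edgeR adjusted p = 0.017) was lost without either library of either group and with doublets removed (0.24, edgeR adjusted p = 0.068). *DLX5*, a homeobox factor of placenta and surface ectoderm on chr9:76639915-76643689, was at 203 and 187 CPM and above both groups, which had 75.1 and 64.1, and 89.3 and 101 (log2 1.56 ± 0.08 and 1.02 ± 0.08, edgeR adjusted p = 1.9e-06 and 1.7e-05). *TFAP2A* was at 262 and 256 CPM, above the 90.8 and 84.5 of POU5F1/DNMT3B cells and below the 344 and 325 of GATA3 cells.

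The other 3 of the 6 called higher than in GATA3 cells were *KLF5* (log2 0.68), *ELF3* (0.60) and *MSX2* (0.32). The *ELF3* call was lost without library 2 or without library 1 of the GATA3 cells, and the *MSX2* call without library 1, without library 2 and without library 2 of the GATA3 cells. Of the 6 called lower, *HAND1*, a bHLH factor of trophoblast, amnion and heart, was at 26.9 and 24.7 CPM against 83.4 and 52.5 in GATA3 cells (log2 -1.41 ± 0.23, edgeR adjusted p = 0.0013). *ELF5*, an ETS factor of trophoblast, was at 42.3 and 48.1 CPM against 86.9 and 81.0, and *PPARG*, a nuclear receptor of trophoblast, at 20.4 and 23.8 against 38.1 and 36.1. *CDX2*, the caudal factor of mouse trophectoderm, was at 1.20 and 0.984 CPM and was called in none of the 3 comparisons by edgeR, with adjusted p between 0.11 and 0.5, and its level was below the 1.37 CPM of empty droplets. *GCM1*, which drives syncytium formation, had 0.0545 and 0.134 CPM.

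The epithelial genes of the trophectoderm divided. Of 15 tested, 12 were higher and 1 (*ATP1B1*) lower than in POU5F1/DNMT3B cells (median log2 0.84), 2 lower with the library as a block and 0 lower without library 1 or with limits scaled to depth, and 6 were higher and 2 lower than in GATA3 cells (median 0.12), 3 higher without library 2 or without library 1 of the GATA3 cells. With *GATA3* in both groups, 8 were higher than in POU5F1/DNMT3B cells and 0 lower. The simple-epithelium keratins *KRT8*, *KRT18* and *KRT19* were at 4623 and 4424, 3580 and 3733, and 1139 and 1116 CPM. They were 0.84, 0.86 and 0.97 above POU5F1/DNMT3B cells on the log2 scale and none was called against GATA3 cells (edgeR adjusted p = 0.53, 0.14 and 0.96), though *KRT18* was with the library as a block (0.10, edgeR adjusted p = 0.011), with empty droplets at 6329, 5543 and 1548 CPM. *KRT7*, a later keratin, was at 158 and 162 CPM against 280 and 304 in GATA3 cells. *PTGES*, which makes prostaglandin E, was above both groups, at 97.0 and 110 CPM against 48.4 and 50.0 and 27.2 and 29.1. *CDH1*, *TJP1* and *OCLN*, of adherens and tight junctions, were called higher in all 3 comparisons by at most 0.49 on the log2 scale. Without library 2 the calls of *CDH1* (log2 0.16, edgeR adjusted p = 0.08) and *OCLN* against POU5F1/DNMT3B cells were lost, and those of *TJP1* and *OCLN* against GATA3 cells. None of the 3 was called against POU5F1/DNMT3B cells with *GATA3*.

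**Figure D2:**
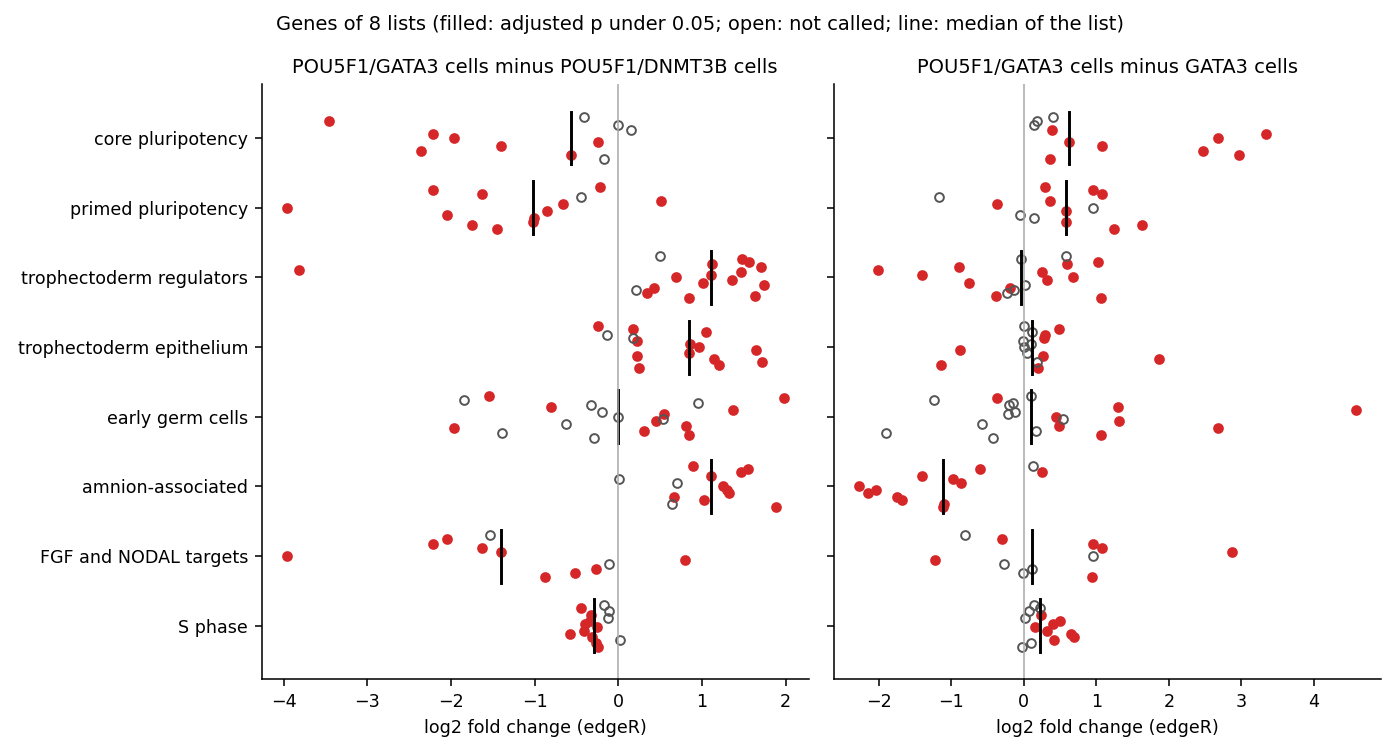
Log2 fold changes from edgeR for the genes of 8 lists, with POU5F1/GATA3 cells against POU5F1/DNMT3B cells on the left and against GATA3 cells on the right. Filled points have an adjusted p under 0.05, open points do not, and black lines are list medians, which lie at -1.02 and 0.59 for primed pluripotency, at 1.10 and -0.03 for trophectoderm regulators and at 1.10 and -1.11 for amnion-associated genes.

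Of the germ cell genes, *PRDM1* and *TFAP2C* were higher and *SOX17* was near 0. Of 20 tested genes of an early germ cell list, 6 were higher and 2 lower than in all other cells, with a median log2 fold change of 0.13. Next to POU5F1/DNMT3B cells 7 of 19 were higher and 3 lower (median 0.00), 4 higher without library 2 and 3 higher when that group was restricted to cells with *GATA3*. Against GATA3 cells 7 were higher and 1 lower (median 0.09), 2 lower with the library as a block. Over all genes, 11.4%, 16.7% and 17.2% were higher in these 3 comparisons, and 15.1%, 16.6% and 16.7% lower. Lower calls in the list were thus no more frequent than over all genes. With *GATA3* in both groups, higher calls over all genes also fell, from 3130 to 1380. The genes that were higher in all 3 comparisons were *DPPA3*, *TFAP2C*, *PRDM1* and *PDPN*, of which *TFAP2C* is also used by trophectoderm and *PRDM1* by many cell types. The *PDPN* call against POU5F1/DNMT3B cells (log2 fold change 0.45, edgeR adjusted p = 0.02) was lost without library 2 of the POU5F1/GATA3 cells (0.29), without library 1 of the POU5F1/DNMT3B cells (0.39) and against those with *GATA3* (0.03). The 2 lower than in all other cells were *SOX17* and *ITGA6*, 1 without library 1, without library 2 or without library 1 of the other cells.

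*DPPA3*, a maternal and germ cell factor that guards DNA methylation on chr5:62861492-62868131, had the largest log2 fold change of the list against all other cells. It was at 10.8 and 19.3 CPM, against 5.01 and 7.1 in POU5F1/DNMT3B cells, 0.538 and 0.721 in GATA3 cells and 1.46 in empty droplets. The groups did not overlap, and library 2 was higher than library 1 in each. The log2 fold change was 3.29 ± 0.29 against all other cells, 1.36 ± 0.30 against POU5F1/DNMT3B cells and 4.58 ± 0.34 against GATA3 cells (edgeR adjusted p = 7.6e-05, 0.0064 and 1.3e-05). The call against POU5F1/DNMT3B cells was lost without library 2 (0.87, edgeR adjusted p = 0.065) and against those with *GATA3* (0.84, edgeR adjusted p = 0.11).

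*DPPA3* was uneven from cell to cell. It had a UMI in 66 and 121 POU5F1/GATA3 cells, 15.8% and 22.1%, with a highest count of 23 and 31 UMIs, and the 10 cells with most UMIs held 45.5% and 35.4% of them. After each cell was thinned to 9805 UMIs, it was seen in 8.37% (5.90 to 11.5%) and 10.4% (7.97 to 13.3%), against 3.64% and 3.8% of POU5F1/DNMT3B cells and 0.613% and 0.796% of GATA3 cells. At this level most cells hold no UMI by counting alone, so the shares do not limit how many cells expressed the gene.

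*TFAP2C* and *PRDM1* were both above all other groups. *TFAP2C*, on chr17:57164400-57174923, was at 79.0 and 74.5 CPM, against 51.0 and 39.8 in POU5F1/DNMT3B cells, 37.2 and 35.7 in GATA3 cells and 46.3 in empty droplets (log2 0.84 ± 0.08 and 1.06 ± 0.08, edgeR adjusted p = 6.4e-05 and 1.3e-05). *PRDM1*, a repressor of somatic genes on chr1:72309096-72335474, was at 45.2 and 44.2 CPM, against 26.8 and 26.9, 30.8 and 32.6, and 16.6 in the same order (log2 0.80 ± 0.08 and 0.48 ± 0.07, edgeR adjusted p = 7.5e-05 and 0.001). When POU5F1/DNMT3B cells were restricted to those with *GATA3*, *PRDM1* was called (0.39, edgeR adjusted p = 0.016) and *TFAP2C* was not (0.28, edgeR adjusted p = 0.071).

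*SOX17*, which starts the germ cell program in pig and human, had 0.0545 and 0.0895 CPM, which is 1 UMI in library 1 and 2 in library 2, under the 0.518 CPM of empty droplets. *DAZL* and *TCL1A* had no UMI in POU5F1/GATA3 cells, and *DDX4*, a helicase of later germ cells, was at 0.545 and 0.313 CPM against 0.823 in empty droplets. *NANOS3* was not analysed here. *DND1*, an RNA-binding factor of germ cells, was at 25.6 and 24.4 CPM, below POU5F1/DNMT3B cells at 46.3 and 45.8 and above GATA3 cells at 10.3 and 9.85. *KIT*, the receptor of migrating germ cells, was at 102 and 113 CPM, against 72.9 and 81.9 and 124 and 126.

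In single cells, *PRDM1*, *SOX17* and *TFAP2C* were found together in 1 and 2 POU5F1/GATA3 cells as counted and in 0 after thinning. At this depth that allows up to 0.718% and 0.547% of cells with a UMI of all 3, and does not limit how many cells expressed them. *PRDM1* and *TFAP2C* were found together after thinning in 17.2% (13.7 to 21.2%) and 15.7% (12.7 to 19.0%), against 10.9% and 7.25% of POU5F1/DNMT3B cells, 7.22% and 6.68% of GATA3 cells and 5.36% and 6.16% of the remaining cells. Before thinning the shares were 64.8% and 61.9% in POU5F1/GATA3 cells, and 42.1% and 37.7%, 32.5% and 31.1%, and 27.5% and 27.4% in the others. Each gene was also higher alone, and whether they met in the same cell more often than this gives was not tested. *DPPA3*, *TFAP2C* and *PRDM1* were found in the same cell in 43 and 74 POU5F1/GATA3 cells as counted, and in 5 and 3 after thinning.

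**Figure D3:**
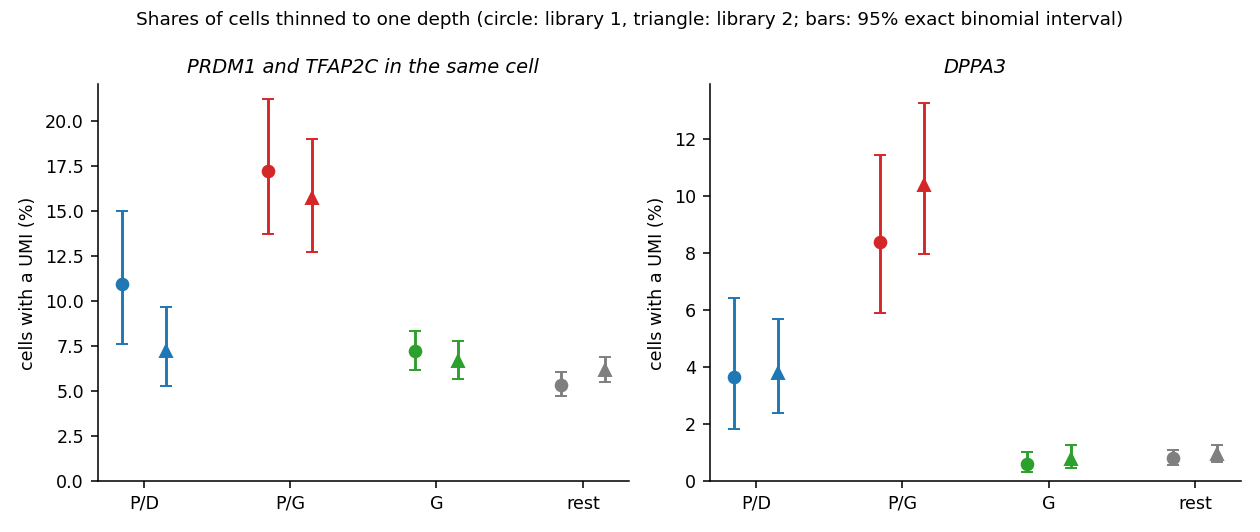
Percent of cells with a UMI after thinning each cell to 9805 UMIs, for *PRDM1* together with *TFAP2C* and for *DPPA3*, in POU5F1/DNMT3B cells (P/D), POU5F1/GATA3 cells (P/G), GATA3 cells (G) and remaining cells, with exact binomial 95% intervals. The POU5F1/GATA3 cells reach 17.2% and 15.7% for the pair and 8.37% and 10.4% for *DPPA3*.

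Amnion-associated genes were mostly lower than in GATA3 cells and higher than in POU5F1/DNMT3B cells. Against all other cells 11 of 13 were lower and 1 (*GATA2*) higher (median log2 -1.61), and against GATA3 cells 11 were lower and 1 higher (median -1.11), the 1 being the *GATA2* call that leaving out a library ended. Compared with POU5F1/DNMT3B cells 10 were higher and 0 lower (median 1.10), 5 with that group restricted to cells with *GATA3*. *ISL1*, a LIM homeobox factor of amnion, was at 12.8 and 11.5 CPM, against 66.0 and 49.7 in GATA3 cells and 5.28 and 5.31 in POU5F1/DNMT3B cells (log2 -2.27 ± 0.15 against GATA3 cells, edgeR adjusted p = 5.2e-06). *MEIS1*, a TALE homeobox factor, was at 47.0 and 58.5 CPM against 227 and 207 in GATA3 cells, and *WNT6*, a ligand, at 43.1 and 41.2 against 94.5 and 86.4.

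Genes of other ectoderm differed with the group compared. *TP63*, the factor of stratified epithelium, was at 12.8 and 10.1 CPM against 102 and 83.9 in GATA3 cells, and of 9 surface ectoderm genes 3 were lower and 2 higher than in all other cells, 1 higher without either library. Of 8 tested against POU5F1/DNMT3B cells, 6 surface ectoderm genes were higher and 0 lower (median log2 0.98), 5 higher against those with *GATA3*, and against GATA3 cells 2 were higher and 3 lower. *PAX6*, a neural and eye factor, was at 3.87 and 6.04 CPM against 36.7 and 47.1 in GATA3 cells. The GATA3 cells were not limited by these genes, so the group they form also holds their RNA. Of 11 neural genes 8 were lower and 2 higher than in all other cells, 1 lower and 1 higher than in POU5F1/DNMT3B cells, and 4 lower and 3 higher than in GATA3 cells. The lower calls were 0 against POU5F1/DNMT3B cells without library 1 or without either library of the latter, and 2 against GATA3 cells without library 2. Their summed level was 229 and 253 CPM against 175 and 201 in all other cells. The 2 higher than in all other cells were *STMN2*, a tubulin regulator of neurons, at 156 and 182 CPM against 71.8 and 75, and *ELAVL3*, a neuronal RNA-binding protein, at 39.6 and 31.9 against 9.36 and 10.2. Only *STMN2* was also called above POU5F1/DNMT3B cells. After thinning, *ELAVL3* had a UMI in 27.5% and 24.1% of POU5F1/GATA3 cells and in 28.1% and 31.1% of POU5F1/DNMT3B cells.

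All 12 mesenchyme and heart genes were lower than in all other cells (median log2 -2.21), with summed levels of 190 and 178 CPM against 941 and 553. Next to POU5F1/DNMT3B cells 1 (*VIM*) was lower (median -0.06). That count was 0 without library 2 or without library 1 of the latter, 3 without either library of the GATA3 cells and 4 with the library as a block. Against GATA3 cells 7 were lower, 1 without library 1 or 2 and 3 without library 1 of the GATA3 cells. *COL3A1*, a fibrillar collagen, was carried by few cells. It had a UMI in 104 and 87 POU5F1/GATA3 cells, and 10 cells held 73.9% and 83.0% of its UMIs. Of 10 interferon-stimulated genes 9 were lower than in all other cells (median log2 -2.65), a list close to the rule's own limit on *ISG15*. The neighbouring groups, set by the same limit, were also low. Summed levels were 48.8 and 45.3 CPM against 61.8 and 59.0 in POU5F1/DNMT3B cells, 49.5 and 46.7 in GATA3 cells and 144 and 140 in all other cells. Lower calls were 1 against POU5F1/DNMT3B cells, 2 without library 1 of the latter and 0 against those with *GATA3*. Against GATA3 cells they were 3, 1 without library 1 and 0 without library 2 or without library 1 of the GATA3 cells.

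Of 12 hypoblast genes 5 were lower and 3 higher than in all other cells, with 0 higher without library 1. *GATA4* and *NID2*, which define the hypoblast and its basement membrane, were at 2.51 and 0.671 and at 2.13 and 2.24 CPM. The mesoderm genes *T* and *MIXL1* had no UMI, and *EOMES*, which is shared by streak and trophoblast, was at 0.436 and 1.03 CPM against 11.2 and 11.3 in POU5F1/DNMT3B cells (log2 -3.82 ± 0.39, edgeR adjusted p = 7.8e-05). Of 13 tested streak and mesoderm genes, 1 (*GSC*) was higher and 4 lower than in all other cells, with 0 higher without either library or without library 1 of the other cells.

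FGF and NODAL target genes were low next to POU5F1/DNMT3B cells. Of 11 tested, 8 were lower and 1 higher (median log2 -1.40), and 6 were lower against those with *GATA3*. *DUSP6*, a phosphatase that ERK signalling induces, was at 6.82 and 6.94 CPM against 29.7 and 30.1, log2 -2.05 ± 0.09 (edgeR adjusted p = 7.2e-07). *FST*, an activin antagonist, was at 64.6 and 68.8 CPM against 174 and 196 in POU5F1/DNMT3B cells and 9.42 and 8.78 in GATA3 cells. Of 12 BMP targets 7 were higher and 3 lower than in POU5F1/DNMT3B cells, 4 higher against those with *GATA3*. Against all other cells 1 was higher and 5 were lower, 3 lower without either library or without library 1 of the other cells. Against GATA3 cells 3 were higher and 3 lower, 1 higher without library 2 and 5 lower with the library as a block. The 3 lower than in POU5F1/DNMT3B cells were *ID1*, *ID3* and *ID4*, with *ID1* at 301 and 303 CPM against 545 and 521. *ID2* and *SMAD6* were among the 7 higher, and both calls were lost without library 1, without library 2 of the POU5F1/DNMT3B cells and against those with *GATA3*, and that of *SMAD6* also without library 2. Of 11 WNT targets 1 was higher and 4 lower than in POU5F1/DNMT3B cells, 2 lower without library 2 or without library 1 of the latter, and 1 lower against those with *GATA3*. *LEF1*, a WNT effector, was at 13.9 and 15.3 CPM against 38.4 and 39.4 in GATA3 cells.

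Most S phase genes were lower than in POU5F1/DNMT3B cells and most were higher than in GATA3 cells. Of 14 S phase genes 10 were lower and 0 higher than in POU5F1/DNMT3B cells, and 8 were higher and 0 lower than in GATA3 cells, 5 without library 2 or without library 1 of the GATA3 cells. *PCNA*, the replication clamp, was at 190 and 178 CPM, against 286 and 288 and 115 and 117. With *GATA3* in both groups 1 gene was lower. Of 14 G2 and M phase genes 10 were lower than in POU5F1/DNMT3B cells, 6 without library 1 or 2 and 5 without library 2 of the latter. Next to GATA3 cells 5 were higher and 1 (*CENPF*) lower (median log2 0.10), and 8 were not called. Without library 1 these calls were 2 higher and 0 lower, and without library 2 they were 3 and 0. Without library 1 of the GATA3 cells 2 were higher, and without their library 2 none was lower.

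Of 13 stress genes 9 were higher and 0 lower than in POU5F1/DNMT3B cells, 4 without library 2 of the latter or against those with *GATA3*. Against GATA3 cells 1 was higher and 4 were lower (median log2 -0.13), and against all other cells 1 was higher and 5 were lower, with 0 higher without either library, 2 lower without library 1 and 3 without library 2. *JUN*, an immediate early factor, was at 147 and 143 CPM against 82.4 and 63.2 in POU5F1/DNMT3B cells and 225 and 183 in GATA3 cells. The call against GATA3 cells (log2 -0.51 ± 0.13, edgeR adjusted p = 0.015) was lost without library 1, without library 2 and without library 1 of the GATA3 cells.

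Among genes of at least 20 CPM, those furthest above all other cells were led by *CLDN10*, a claudin of tight junctions that forms ion pores, on chr11:65027706-65145002. It was at 1535 and 1473 CPM, against 690 and 700 in POU5F1/DNMT3B cells, 129 and 148 in GATA3 cells and 228 and 273 in all other cells, a 5.95-fold difference from the last (log2 2.57 ± 0.08, edgeR adjusted p = 7.6e-07). It was seen in 97.1% and 95.8% of thinned POU5F1/GATA3 cells, with a median of 60 and 53 UMIs before thinning. It was also found in 81.8% and 80.3% of POU5F1/DNMT3B cells and in 50.2% and 51.9% of GATA3 cells. Empty droplets had 296 CPM.

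The next 11 were *PCDH17*, *PLCXD3*, *CCDC60*, *FOLR1*, *HENMT1*, *ELAVL3*, *CDH7*, *COBL*, *GRIN2B*, *SLCO4C1* and *UTF1*, with log2 fold changes from 2.43 to 1.72. Of these, *ELAVL3* and *UTF1* were seen in no larger share of thinned POU5F1/GATA3 cells than of POU5F1/DNMT3B cells. *HENMT1*, which methylates the ends of piRNAs in germ cells, was at 31.7 and 33.5 CPM against 7.18 and 9.98. *FOLR1*, a folate receptor, was at 37.2 and 64.0 CPM against 9.88 and 14.9. Their calls against POU5F1/DNMT3B cells were less firm: that of *FOLR1* was lost without library 2 (log2 0.93, edgeR adjusted p = 0.064), and that of *HENMT1* without library 1 (0.90, edgeR adjusted p = 0.056), without library 2 (0.79, edgeR adjusted p = 0.1) and without library 1 of the POU5F1/DNMT3B cells.

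The 8 genes furthest below all other cells were *TAC3*, *MYL4*, *ZEB2*, *MYL7*, *BMP5*, *PDE3A*, *HS6ST3* and *PLXNA2*, with log2 fold changes from -4.26 to -3.05. *MYL4* and *MYL7* are atrial myosin light chains, and *BMP5* is a ligand. Neighbouring groups shared part of this, but not for the same genes. After thinning, *TAC3* had a UMI in 3.11% and 2.19% of POU5F1/GATA3 cells, against 4.64% and 2.76% of POU5F1/DNMT3B cells. Remaining cells, which include those over the *GABRP* limit, had 19.1% and 14.2%. Shares in POU5F1/GATA3 and POU5F1/DNMT3B cells were 1.44% and 2.55% against 0.662% and 1.73% for *MYL4*. They were 13.6% and 10.8% against 11.6% and 12.3% for *PDE3A*, and 6.70% and 6.93% against 15.9% and 13.8% for *PLXNA2*. In GATA3 cells the shares were low for *TAC3* (4.95% and 4.64%) and *MYL4* (1.79% and 1.42%). There they were higher for *PDE3A* (52.2% and 45.6%) and *PLXNA2* (26.7% and 21.6%). *ZEB2*, a repressor of epithelial genes, was at 1.64 and 2.55 CPM, against 30.1 and 24.3 in POU5F1/DNMT3B cells and 10.1 and 5.63 in GATA3 cells. It was thus below both neighbouring groups as well.

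Among the 18696 genes tested, 409 were counted as higher than in both neighbouring groups and 164 as lower than in both, some of those above included. The counts leave out LOC, mitochondrial and ribosomal protein genes and those of the rule. The 409 needed at least 20 CPM in both libraries in POU5F1/GATA3 cells and the 164 in both neighbouring groups, so the counts are not alike. How many genes could meet these limits is not given, so the counts are not shares of the 18696. Both comparisons used the same POU5F1/GATA3 sums. Without these limits on level and class they called 16.7% and 17.2% of all genes higher, and 16.6% and 16.7% lower. *PCDH17*, a protocadherin on chr11:30510779-30611732, was at 96.7 and 86.9 CPM, against 18.7 and 19.1 in POU5F1/DNMT3B cells and 16.7 and 13.3 in GATA3 cells, log2 2.34 ± 0.10 and 2.60 ± 0.09 (edgeR adjusted p = 5.8e-07 and 3.5e-07). *CCDC60*, *SLCO4C1* (an organic anion transporter), *CDH7* (a cadherin), *COBL* (an actin nucleator), *GRIN2B* (a glutamate receptor subunit), *ONECUT2*, *GLRX* and *WDR72* followed by the same rule. *COBL* was at 98.6 and 102 CPM against 19.9 and 19.9 and 32.7 and 30.4.

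After thinning, *PCDH17* had a UMI in 36.8% and 34.1%, *COBL* in 49.5% and 50.7%, *CDH7* in 38.5% and 40.5% and *GRIN2B* in 32.1% and 31.4%. In POU5F1/DNMT3B cells the shares were 11.3% and 8.1% for *PCDH17* and 12.9% and 13.5% for *COBL*. *PCDH17* was also higher than in POU5F1/DNMT3B cells with *GATA3* (log2 1.57, edgeR adjusted p = 4.1e-05), as was *CLDN10* (0.63, edgeR adjusted p = 0.0011). The 5 genes named by the rule among the 164 lower than in both groups were *OPCML*, *ROBO2*, *PKNOX2*, *CDH11* and *PRKCB*. *ROBO2*, an axon guidance receptor, was at 30.7 and 47.0 CPM against 106 and 112 and 223 and 230.

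To place the cells between the neighbouring groups, 237 genes were taken that edgeR called between POU5F1/DNMT3B and GATA3 cells. They differed at least 4-fold and had a mean of at least 20 CPM in the higher of the groups. No comparison with POU5F1/GATA3 cells chose them, but the sums of those cells were part of the fit, its filter and its estimate of spread. Between POU5F1/DNMT3B and GATA3 cells edgeR called 54.3% of all genes, 27.4% higher and 26.9% lower in POU5F1/DNMT3B cells. On a linear CPM scale with GATA3 cells at 0 and POU5F1/DNMT3B cells at 100%, the 115 genes higher in POU5F1/DNMT3B cells had a median place of 22.5% and 21.0%. The 122 genes higher in GATA3 cells had a median place of 78.3% and 74.6%. These places depend on the scale. On a log2(CPM + 1) scale, chosen after seeing the data, the median places moved toward the middle, to 45.1% and 44.1% for the first set and 61.4% and 55.6% for the second. Of the genes of the first set that lay between the groups, 100 of 111 and 103 of 111 were nearer GATA3 cells on the linear scale, and 66 and 73 on the log2 scale. Of those of the second set, 30 of 112 and 33 of 116 were nearer GATA3 cells on the linear scale, and 46 and 53 on the log2 scale. Among genes at least 2-fold apart the second set had a median place of 65.8% and 60.2% on the linear scale, and of 53.9% and 48.1% on the log2 scale. Of the 237 genes, 223 and 227 lay between the groups, 2 and 3 above both and 12 and 7 below both. Among 792 genes at least 2-fold apart, 695 and 698 lay between. The choice of genes favours such places, since it asked for a wide gap between the sums that form the ends of the scale. The rule favours them as well: it shares the *POU5F1* minimum with POU5F1/DNMT3B cells, and the limits on *GATA3* and *DNMT3B* with GATA3 cells. No other group of cells was placed for comparison, so the counts between the groups do not show a transition. RNA mixed from cells of both groups gives in-between values as well, and this was not tested. With the cells of highest doublet score removed, the medians were 22.5% and 20.5% over 128 genes of the first set. They were 76.8% and 73.4% over 160 of the second.

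**Figure D4:**
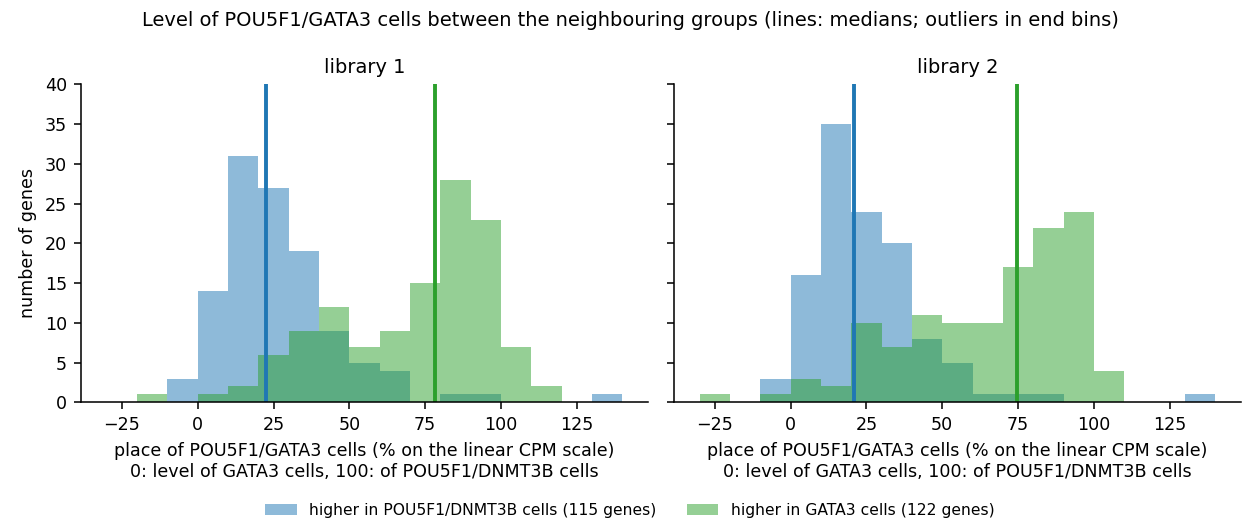
Number of genes by the place of POU5F1/GATA3 cells between GATA3 cells (0%) and POU5F1/DNMT3B cells (100%) on the linear CPM scale, by library, for 115 genes higher in POU5F1/DNMT3B cells (blue) and 122 higher in GATA3 cells (green). Vertical lines are medians, at 22.5% and 78.3% in library 1 and 21.0% and 74.6% in library 2, and places beyond the axis are drawn in the end bins.

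Levels were also followed across the limits of the rule, as a description. Among cells that met the other limits, *POU5F1* bins of 0 to 1, 2 to 4, 5 to 9 and 10 or more UMIs held 2285, 499, 240 and 178 cells in library 1 and 2261, 631, 347 and 201 in library 2. *CLDN10* had 129, 606, 1230 and 1914 CPM over these bins in library 1 and 148, 613, 1243 and 1853 in library 2. *DPPA3* had 0.538, 1.64, 4.92 and 18.1 CPM, and 0.721, 2.23, 14.9 and 26.7 in library 2. *TP63* went the other way, with 102, 44.0, 19.5 and 4.53 CPM, and 83.9, 33.6, 13.7 and 4.15. Each moved the same way at every bin in both libraries. Median depth moved with the bins, from 29058 to 41166 UMIs in library 1 and from 26763 to 38012 in library 2. The first bin is the GATA3 cells and the last 2 bins are the POU5F1/GATA3 cells, so the ends repeat the comparison of those groups.

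Across *DNMT3B*, bins of 0, 1 to 3, 4 to 9 and 10 or more UMIs, with *POU5F1* and *GATA3* above their limits, held 210, 208, 80 and 46 cells in library 1 and 283, 265, 115 and 90 in library 2. *PCDH17* had 107, 86.6, 42.9 and 11.8 CPM, and 91.7, 82.8, 57.2 and 9.73 in library 2. *SOX2* had 41.6, 53.1, 79.0 and 105 CPM, and 35, 45.6, 82.9 and 107. The highest *PCDH17* thus stood where *DNMT3B* was at 0, and the highest *SOX2* where it was at 10 or more. The first 2 bins are the POU5F1/GATA3 cells and the last 2 the POU5F1/DNMT3B cells with *GATA3*. From first to last bin, median depth rose from 38204 to 55233 and from 32802 to 48693.5 UMIs. *POU5F1* rose from 205 to 382 and from 231 to 421 CPM, and *GATA3* fell from 181 to 88.7 and from 184 to 86.7. *TFAP2C* had 68.6, 88.8, 94.4 and 51.7 CPM, and 73.8, 75.2, 67.4 and 48.2.

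**Figure D5:**
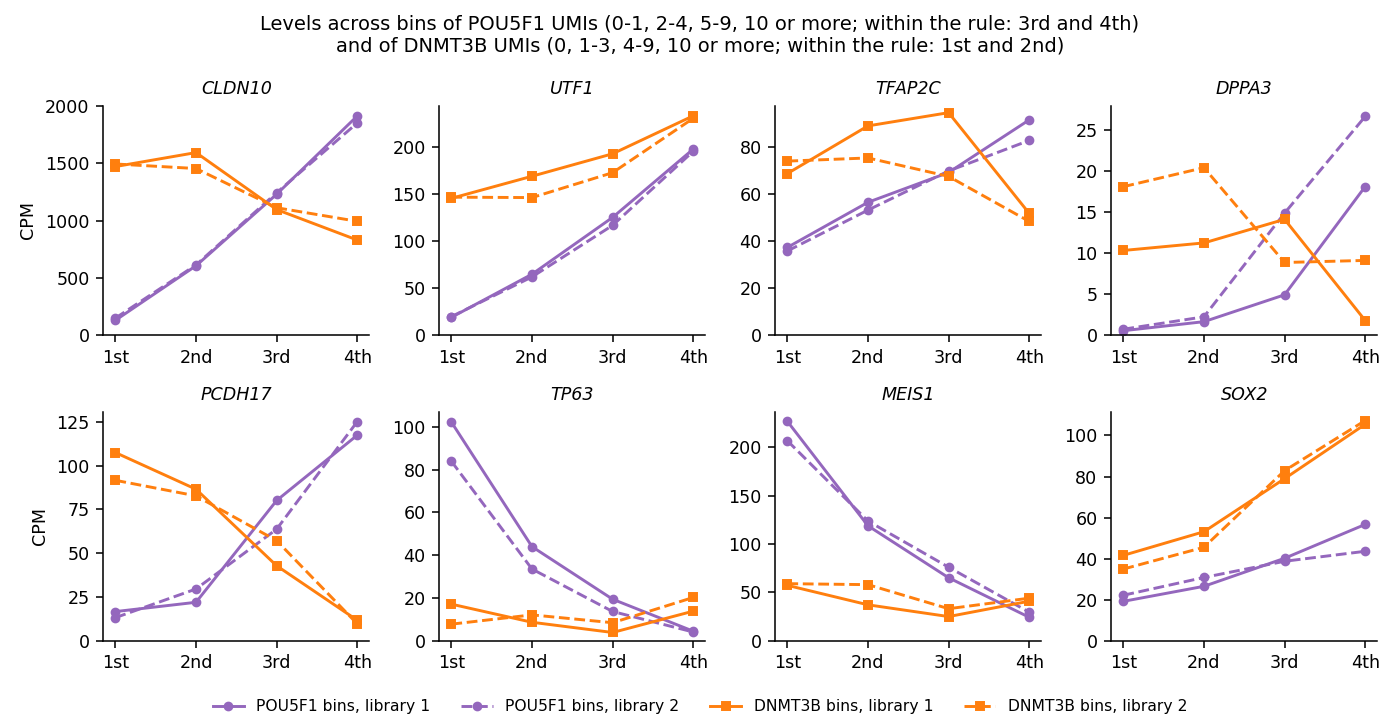
Levels in CPM of 8 genes across bins of *POU5F1* UMIs (purple) and *DNMT3B* UMIs (orange), among cells that met the other limits of the rule, with library 1 as solid and library 2 as dashed lines. *CLDN10*, *UTF1*, *DPPA3* and *PCDH17* were higher with each *POU5F1* bin and *TP63* and *MEIS1* lower, while *PCDH17* was lower and *SOX2* higher with each *DNMT3B* bin.

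Within each library the 30 nearest cells of each POU5F1/GATA3 cell were found on 30 principal components that did not use the 6 genes of the rule. On average 49.7% and 46.0% of them were POU5F1/GATA3 cells, which were 5.67% and 6.70% of all cells. Own-group shares were 70.5% and 72.3% for POU5F1/DNMT3B cells and 54.7% and 51.7% for GATA3 cells. Group size bears on such shares: of 7369 and 8175 cells, 302 and 579 were POU5F1/DNMT3B cells and 2285 and 2261 GATA3 cells. Neighbour shares here are not scaled to group size, so they do not rank how closely groups lay together. Among the neighbours of POU5F1/GATA3 cells, POU5F1/DNMT3B cells made up 8.35% and 9.12%, GATA3 cells 10.1% and 10.1%, and remaining cells 31.8% and 34.8%. Of these remaining neighbours, 77.4% and 69.9% had 2 to 4 *POU5F1* UMIs, and 63.4% and 58.9% missed no limit but that on *POU5F1*, against 11.4% and 13.2% of all remaining cells. Most of the neighbours were of the group for 217 of 418 and 246 of 548 cells. Those cells had more *POU5F1* (285 and 290 CPM) than the others (177 and 192 CPM), and *DNMT3B* at 19 and 16.7, against 17.4 and 21 CPM.

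The POU5F1/GATA3 cells differed among themselves by more than counting error. At 9805 UMIs a cell, the ratio of variance to mean, which is 1 for counting error alone, was 15.1 and 12.7 for *KRT18*. It was 5.80 and 6.71 for *CLDN10*, and 5.41 and 5.79 for the mitotic gene *UBE2C*. It stayed near 1 for *PRDM1* (1.14 and 1.01), *SOX2* (1.36 and 1.28) and *TFAP2C* (1.42 and 1.40), at means of 0.438 and 0.431, 0.459 and 0.427, and 0.828 and 0.715 UMIs a cell, where little spread can be seen. *DPPA3* had 1.87 and 3.15 at means of 0.112 and 0.193.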

How the data were processed

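The counts deposited by the authors are UMIs per gene and barcode for 2 blastoid libraries, per the labels made with Cell Ranger 7.1.0 on susScr11, and not filtered for cells. Seurat 4.3.0 is also named in the submitters' processing notes. The libraries held 289452283 and 302211552 UMIs. The cell minimum was taken from the ranked barcode totals of each library. Bulk pESC values were not used here. UMIs were summed per library and group and tested with edgeR 4.0.16 (filterByExpr, TMM, quasi-likelihood test, Benjamini-Hochberg adjustment over all genes tested, called under 0.05), since cells are not replicates. Alternatives were DESeq2 1.42.0 and its size factors, no filter on low counts, a library block, leaving out each library of a group, stricter and depth-scaled limits, removal of doublets or of cells high in mitochondrial UMIs, and other limits for the neighbouring groups. On simulated data for POU5F1/GATA3 cells against all other cells (19750 genes), 191 of 200 genes changed 2-fold were recovered, with 10 false calls. The simulated sums were independent, with 1 spread for all genes, no pairing by library and no choice of cells by their RNA. These counts thus do not measure the error in the real data. No cell was removed as a doublet. Scrublet set its own limit at 1 and 0 doublets and did not work, so the top scores (434 and 535 cells) served as an alternative.

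The cells and the 19 gene lists were chosen with earlier results of these data known. Named were the rule's 6 genes, list genes, the 12 highest and 8 lowest log2 fold changes against all other cells, and the 10 genes higher and 5 lower than in both neighbouring groups, among called genes with at least 20 CPM in both libraries of the higher group of each comparison, without LOC, mitochondrial and ribosomal genes. Sums of a library share its cells and preparation, so groups are paired by library. Correlations of their deviations ran from 0.098 to 0.422. *NANOS3*, *HSPA1A*, *KRT14* and *KRT17* were not analysed here. A few genes of the lists and of this rule are not reported here. Replicate sums differed beyond sampling noise. Coordinates come from RefSeq on Sscrofa11.1, the same assembly as susScr11.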

Additional observations from a re-analysis of the deposited data

How the results depend on the processing

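Depth and the limits of the rule set how many cells were found: with stricter limits (at least 8 *POU5F1*, at most 1 *DNMT3B* and at least 4 *GATA3* UMIs) they were 2.02% and 2.2% of cells, and with limits scaled to depth 3.81% and 5.28%. Stricter limits gave *DPPA3* in 12.8% of thinned cells of library 1. Without 1 library of a group, with the lone sum assumed to vary like the others, the counts of called genes ran from 2974 to 5845 against all other cells, from 3954 to 4884 against POU5F1/DNMT3B cells and from 4019 to 5233 against GATA3 cells. Restricting the POU5F1/DNMT3B cells to those with *GATA3* left 2572. With a replicate block for the library the counts were 7596, 7879 and 8349, each within 1.5 times of the count without it. Among fold changes of named genes, 75 passed the test only with the block and 1 only without it. Leaving out the 9 barcodes shared by the libraries was chosen after seeing the data, and ended 2 calls of named genes.

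The median place between the groups was 40.2% over all genes as the mean of the libraries. It was 45.8% for genes at least 2-fold apart and 46.4% with scaled limits. For genes higher in POU5F1/DNMT3B cells it was 27.8%, 25% and 18.5% (2-fold, scaled, stricter), and for genes higher in GATA3 cells 63.0%, 79.2% and 80.8%. On a log2(CPM + 1) scale, chosen after seeing the data, the place was 49.2% over all genes, 44.6% for the first set and 58.5% for the second, and 47.6%, 43.8% and 51.0% for genes at least 2-fold apart.

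Of single named genes, 9962 of 10700 repeated values were counted as unchanged, 519 as weaker and 210 as stronger. The unchanged ones include values whose direction turned for genes not called at first, and values without an adjusted p. The reversals below are of called genes only. With scaled limits the log2 fold change turned to 0.041 for *ATP1B1* and 0.0015 for *ID1* against all other cells, and to -0.283 for *PDE3A* and -0.031 for *TP63* against POU5F1/DNMT3B cells. Against those with *GATA3* it turned to -0.0207 for *PDE3A* and -0.379 for *TFAP2B*. With stricter limits it turned to -0.939 for *DNMT3L*, -3.07 for *CDX4* and -0.0796 for *RAX* against GATA3 cells. The cause was not tested. Depth limits genes near the level of empty droplets, and 2 libraries of 1 condition leave no other estimate of the spread.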
